A study of Mus musculus with 15 samples.

Results

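The expression of 10 chemokine genes was followed across 15 forebrain samples of mice in a study of erythropoietin and hypoxic ischemia. The CC chemokines were Ccl2, Ccl3, Ccl4, Ccl6, Ccl7, Ccl9 and Ccl12, and the CXC chemokines were Cxcl1, Cxcl10 and Cxcl16. Every probe set annotated to 1 of these symbols was taken, which gave 15 of the 45037 probe sets on the arrays (Affymetrix mouse arrays, whose short oligonucleotide probes are summarised into probe sets). The genes were chosen with earlier results of these data known, so counts over them describe these arrays and no more.

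Total RNA was measured in 3 groups of 5 samples, 1 array per sample. VEH-Sham received vehicle 1 h before sham surgery, VEH-HI received vehicle 1 h before hypoxic ischemia (a combined loss of oxygen and blood flow), and EPO-HI received erythropoietin, the hormone of red cell formation, at 5 U per g into the peritoneum 1 h before hypoxic ischemia. There was no group with erythropoietin and sham surgery. The sources used here do not give strain, age, sex, the method of injury, how long after it the tissue was taken, or a batch. Nothing in the labels states that each sample came from its own animal, so p-values cover only the spread among these samples, which may be technical.

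Chemokines are small secreted proteins that attract leukocytes along a concentration gradient by way of G protein-coupled receptors. CC chemokines draw mainly monocytes, macrophages and lymphocytes, and CXC chemokines draw neutrophils or activated T cells. In brain they are made by activated microglia, astrocytes, endothelium and entering leukocytes, and their genes are transcribed through NF-kB, AP-1, STAT and interferon regulatory factors. Ccl2, Ccl7 and Ccl12 lie in 1 cluster on chromosome 11, where Ccl7 follows Ccl2 and Ccl12 stands between Ccl11 and Ccl8. Ccl9, Ccl6, Ccl3 and Ccl4 follow each other in a second cluster on chromosome 11. Cxcl16 lies elsewhere on chromosome 11, and Cxcl1 and Cxcl10 lie on chromosome 5.

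RefSeq promoter windows of 300 bases, most of them before the transcription start (build GRCm38.p6), were matched for 6 of the 10 genes: Cxcl1, Cxcl10, Ccl12, Ccl9, Ccl6 and Ccl3. The windows of Cxcl10, Ccl12 and Cxcl1 are printed because Cxcl10 is the CXC member and Ccl12 the CC member of these windows with the largest rise after injury, and Cxcl1 is the member whose probe sets disagreed. Capitals mark matches to the motifs that were searched on both strands. These were the NF-kB consensus, TGAGTCA for AP-1, GAAANNGAA for the core of the interferon-stimulated response element, TTCNNNGAA for the STAT-bound GAS element, and TATAAA for the TATA box.
Cxcl10 (chr5:92348840-92349139, minus strand): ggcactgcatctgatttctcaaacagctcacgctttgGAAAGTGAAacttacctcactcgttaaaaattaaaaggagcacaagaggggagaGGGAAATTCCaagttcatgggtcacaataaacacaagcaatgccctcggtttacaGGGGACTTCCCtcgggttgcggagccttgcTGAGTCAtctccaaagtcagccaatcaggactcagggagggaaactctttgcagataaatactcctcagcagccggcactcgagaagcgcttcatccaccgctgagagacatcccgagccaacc
Ccl12 (chr11:82101595-82101894, plus strand): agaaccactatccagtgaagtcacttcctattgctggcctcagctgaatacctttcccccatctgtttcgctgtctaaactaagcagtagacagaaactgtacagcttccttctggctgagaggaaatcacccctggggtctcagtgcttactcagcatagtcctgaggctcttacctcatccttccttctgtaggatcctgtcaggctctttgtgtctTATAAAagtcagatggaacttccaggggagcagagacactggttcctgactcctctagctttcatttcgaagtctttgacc
Cxcl1 (chr5:90890995-90891294, plus strand): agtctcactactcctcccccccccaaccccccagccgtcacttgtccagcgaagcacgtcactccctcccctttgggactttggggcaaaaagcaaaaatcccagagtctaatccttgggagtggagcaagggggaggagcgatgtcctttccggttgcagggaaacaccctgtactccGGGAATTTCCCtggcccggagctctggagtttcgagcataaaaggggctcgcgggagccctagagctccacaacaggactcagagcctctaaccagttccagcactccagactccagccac

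The Cxcl10 window held 3 NF-kB matches, of which the pair at -104 and -103 overlap, with 1 AP-1 match at -74 and 1 interferon-stimulated response element core at -213 (first base of the match from the transcription start). The Cxcl1 window held an NF-kB match at -71 that overlaps 1 on the opposite strand at -70. The Ccl12 window held a TATA box at -31 and no match to the other motifs. Among the 6 windows the NF-kB consensus stood in 3 (Cxcl1, Cxcl10 and Ccl9), against 8.46% of 32851 mouse promoters of the same length. AP-1 stood in 1 of 6 against 5.20%, the interferon-stimulated response element core in 2 of 6 (Cxcl10 and Ccl3) against 8.56%, the TATA box in 2 of 6 (Ccl12 and Ccl9) against 13.6%, and GAS in 0 of 6 against 8.30%. A match describes the letters and does not show that a factor bound there.

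Values are log2(intensity + 16) of the authors' scaled intensities. Testing was limited to the brightest 60% of probe sets by their mean over the arrays (27022, mean of at least 5.46), and a probe set is called where the limma p-value adjusted by Benjamini-Hochberg over all 27022 is under 0.05. Of the 15 chemokine probe sets 13 passed this filter, for 9 of the 10 genes. Ccl7 and 1 of the 2 probe sets of Cxcl16 did not. For 6 of the 13, the VEH-Sham mean was itself below 5.46, so those passed through the injured groups. Where a gene had several probe sets, the brightest stands for it and the others are given beside it.

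The arrays fell into a pair of sets that no label names. VEH-Sham 1 to 4 (set A) had median intensities of 55.4 to 58.0, and VEH-Sham 5 with all 10 hypoxic ischemia arrays (set B) had 39.3 to 44.5. The correlation of 1 array with another was 0.968 to 0.972 inside set A, 0.962 to 0.982 inside set B and 0.927 to 0.954 across them. Only VEH-Sham 5 joins the sets, so differences from VEH-Sham 5 alone stand beside those from the 5 shams, and beyond that 1 array the set and the injury cannot be told apart. Over all tested probe sets the median difference of VEH-HI from VEH-Sham was -0.061 as deposited and 0.18 after the array medians were made equal, and the share of calls that were higher went from 43.1% to 85.6%. For EPO-HI against VEH-Sham the median went from -0.053 to 0.22 and that share from 40.6% to 88.7%.

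After hypoxic ischemia with vehicle, 8 of the 13 tested chemokine probe sets, for 7 of 9 genes, were called higher than in sham: Ccl12, Ccl3, Ccl6 (both probe sets), Ccl2, Cxcl10, Ccl9 and Ccl4. None was called lower, and Cxcl1 and Cxcl16 were not called. Of all tested probe sets 22.8% were called in either direction and 9.85% were called higher. Ccl12, Ccl3, Ccl2, Cxcl10 and the brightest Ccl6 probe set had VEH-Sham means below the filter and passed it through the injured groups. Without the filter 8 of 15 were called higher and 0 lower, against 5.64% of all 45037 called higher. All 5 VEH-HI arrays lay above all 5 shams for 3 of the 13 (Ccl12, Ccl3 and 1 probe set of Ccl6), against 3.71% of all tested. The median difference was 0.90 over the 13 chemokine probe sets and -0.061 over all tested, and against VEH-Sham 5 alone these medians were 1.29 and 0.0043. Blocking on the array set, which leaves VEH-Sham 5 as the only sham that informs the contrast, left 0 of 13 called by limma and only 3 of all 27022, so this count says nothing particular to chemokines. An unadjusted p under 0.05 was found for 9 of the 13 there, against 6.79% of all tested. With equal array medians 10 were called higher and 0 lower, against 24.5% of all tested called higher, and with quantile normalization 10 and 0, against 11.3%.

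**Figure D1:**
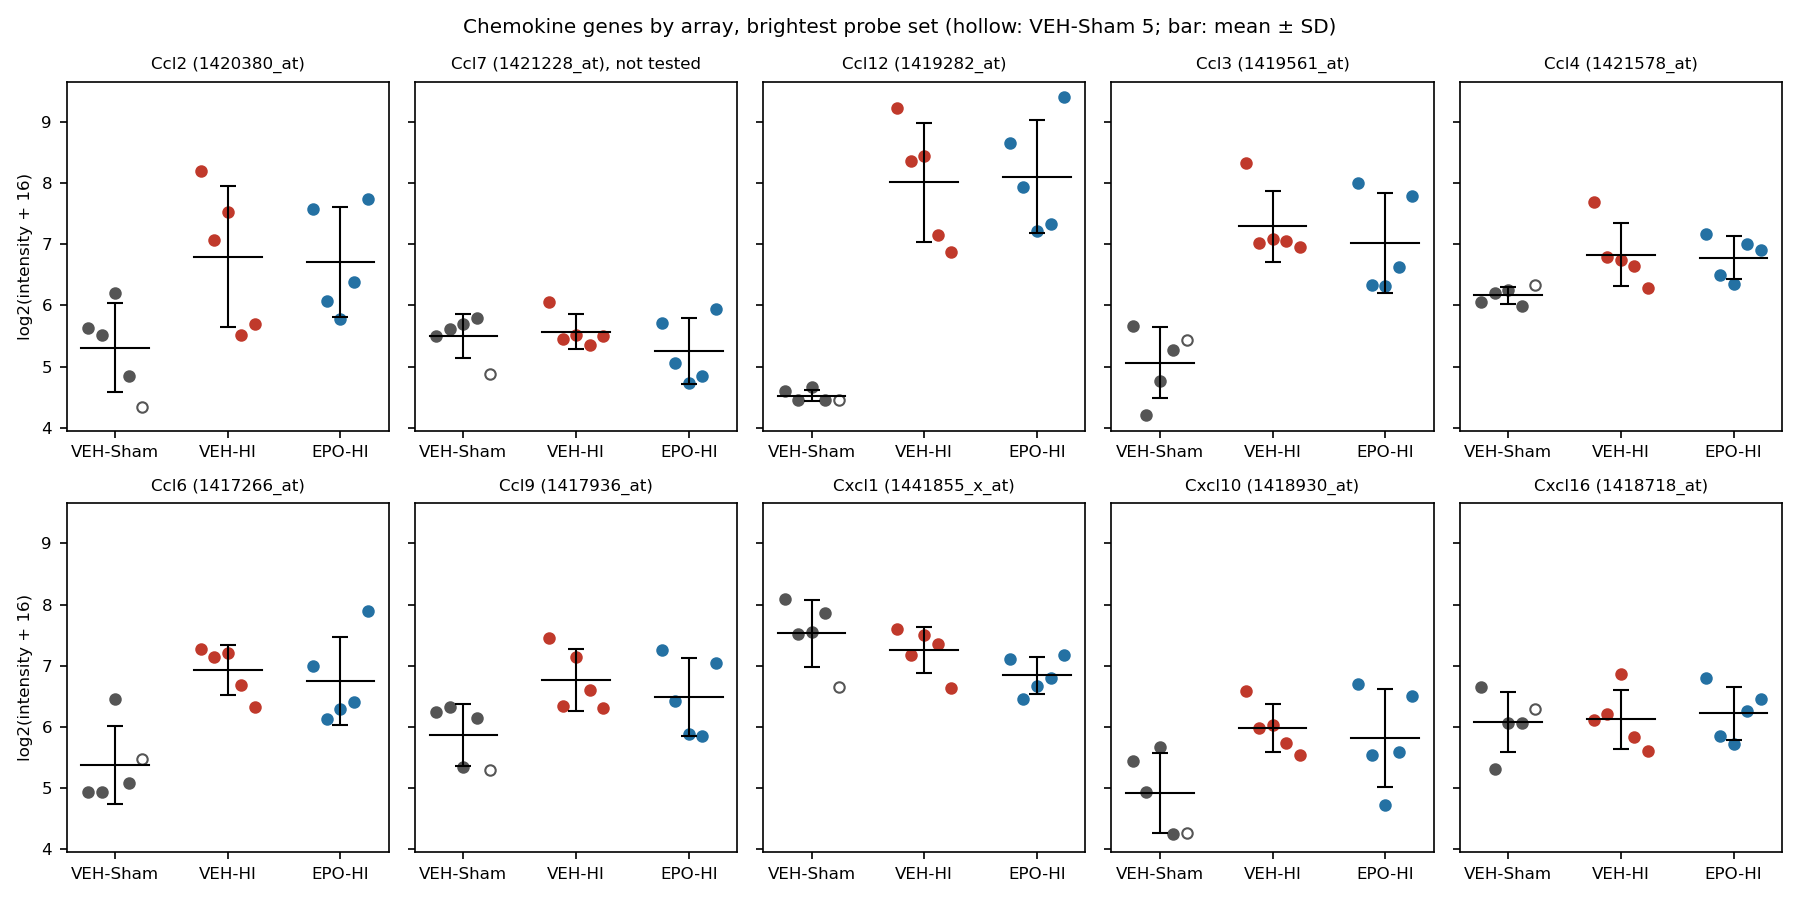
Log2(intensity + 16) of the brightest probe set of each of the 10 chemokine genes on every array, by group (5 arrays each); the hollow point is VEH-Sham 5 and bars are the mean ± SD. Ccl12 lies between 4.46 and 4.66 in sham and between 6.88 and 9.40 after hypoxic ischemia, whereas the groups of Cxcl16 overlap.

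Among the ligands of CCR2, the receptor that draws inflammatory monocytes, Ccl12 had the largest difference of the 10 genes. Its level was 4.60, 4.46, 4.66, 4.46 and 4.46 in VEH-Sham 1 to 5, 9.22, 8.36, 8.45, 7.15 and 6.88 in VEH-HI 6 to 10, and 8.65, 7.94, 7.21, 7.33 and 9.40 in EPO-HI 11 to 15. Every injured array lay above every sham, and VEH-Sham 5 lay within the other shams. The linear intensities of the shams were 5.99 to 9.34, below the constant of 16 that was added, against 102 to 662 on the injured arrays. The SD was 0.10 in VEH-Sham, 0.97 in VEH-HI and 0.92 in EPO-HI. Ccl12 rose by 3.48 ± 0.38 in VEH-HI (SE, n = 5 per group, limma adjusted p = 2.96e-05) and by 3.58 ± 0.38 in EPO-HI (limma adjusted p = 5.83e-05). Against VEH-Sham 5 alone the differences were 3.55 and 3.64. The size depends on the constant added: the VEH-HI fold was 11.2 with 16, 29.9 with 1 and 4.41 with 64.

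Ccl2, the main monocyte attractant that signals through CCR2, also rose, with more spread among the shams (SD 0.73). It read 5.64, 5.51, 6.21, 4.85 and 4.34 in VEH-Sham 1 to 5, 8.19, 7.07, 7.52, 5.52 and 5.70 in VEH-HI 6 to 10, and 7.58, 6.08, 5.78, 6.38 and 7.74 in EPO-HI 11 to 15. VEH-HI 9 and 10 and EPO-HI 12 and 13 overlapped with the shams, and VEH-Sham 5 was the lowest array of all. Ccl2 rose by 1.49 ± 0.46 in VEH-HI (limma adjusted p = 0.0269) and by 1.40 ± 0.46 in EPO-HI (limma adjusted p = 0.0411), and by 2.46 and 2.38 against VEH-Sham 5 alone. The VEH-HI call was lost when VEH-Sham 4 or VEH-HI 6, 7 or 8 was left out (limma adjusted p up to 0.0812). The EPO-HI call was lost when VEH-Sham 1, 2, 4 or 5 or EPO-HI 11, 14 or 15 was left out, with a constant of 64, without the intensity filter and without the variance trend (limma adjusted p up to 0.108).

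Ccl7, which acts on several CC receptors and neighbours Ccl2, was too dim to be tested. It read 5.50, 5.62, 5.70, 5.80 and 4.88 in VEH-Sham 1 to 5, 6.06, 5.45, 5.51, 5.35 and 5.50 in VEH-HI 6 to 10, and 5.71, 5.06, 4.74, 4.84 and 5.95 in EPO-HI 11 to 15. The groups overlapped, and the highest arrays were VEH-HI 6 and EPO-HI 15. In a fit without the intensity filter the difference was 0.074 for VEH-HI (limma adjusted p = 0.868) and -0.24 for EPO-HI (limma adjusted p = 0.545). Against VEH-Sham 5 alone these were 0.70 and 0.39, so the direction for EPO-HI turned.

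Ccl3 and Ccl4 are neighbouring genes whose products attract monocytes, T cells and NK cells, and Ccl3 acts through CCR1. Ccl3 read 5.67, 4.21, 4.76, 5.27 and 5.43 in VEH-Sham 1 to 5, 8.33, 7.02, 7.09, 7.06 and 6.96 in VEH-HI 6 to 10, and 8.00, 6.33, 6.32, 6.63 and 7.79 in EPO-HI 11 to 15. No injured array overlapped with a sham, and 4 of the 5 VEH-HI arrays lay between 6.96 and 7.09 with VEH-HI 6 above them. Ccl3 rose by 2.22 ± 0.34 in VEH-HI (limma adjusted p = 0.000487) and by 1.94 ± 0.34 in EPO-HI (limma adjusted p = 0.00228), and against VEH-Sham 5 alone by 1.86 and 1.58.

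Ccl4 read 6.05, 6.20, 6.25, 5.99 and 6.33 in VEH-Sham 1 to 5, 7.69, 6.79, 6.74, 6.64 and 6.29 in VEH-HI 6 to 10, and 7.17, 6.49, 6.35, 7.00 and 6.90 in EPO-HI 11 to 15. Of the injured arrays, VEH-HI 10 alone lay below the highest sham, which for this gene was VEH-Sham 5. Ccl4 rose by 0.66 ± 0.20 in VEH-HI (limma adjusted p = 0.0255) and by 0.62 ± 0.20 in EPO-HI (limma adjusted p = 0.0407), and by 0.50 and 0.45 against VEH-Sham 5 alone. The VEH-HI call was lost without VEH-Sham 1, VEH-Sham 4 or VEH-HI 6 (limma adjusted p up to 0.0724). In EPO-HI, leaving out VEH-Sham 1, 2, 3 or 4 or EPO-HI 11, 14 or 15, the filter or the trend ended the call (limma adjusted p up to 0.104).

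Ccl6 and Ccl9 are rodent CC chemokines of myeloid cells that act through CCR1. The brightest probe set of Ccl6 read 4.93, 4.94, 6.46, 5.09 and 5.48 in VEH-Sham 1 to 5, 7.27, 7.15, 7.21, 6.69 and 6.32 in VEH-HI 6 to 10, and 7.00, 6.13, 6.30, 6.41 and 7.90 in EPO-HI 11 to 15. VEH-Sham 3 was the 1 sham that overlapped with the injured arrays, and without it the groups were apart. Ccl6 rose by 1.55 ± 0.31 in VEH-HI (limma adjusted p = 0.00270) and by 1.37 ± 0.31 in EPO-HI (limma adjusted p = 0.00733), and by 1.45 and 1.27 against VEH-Sham 5 alone. The second Ccl6 probe set rose by 0.86 ± 0.26 in VEH-HI (limma adjusted p = 0.0247), with all 5 arrays above all shams, and differed by 0.56 ± 0.26 in EPO-HI (limma adjusted p = 0.140). Against VEH-Sham 5 alone these were 0.99 and 0.68.

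The brightest probe set of Ccl9 read 6.24, 6.33, 5.34, 6.15 and 5.29 in VEH-Sham 1 to 5, 7.46, 6.35, 7.14, 6.60 and 6.31 in VEH-HI 6 to 10, and 7.25, 6.43, 5.88, 5.86 and 7.04 in EPO-HI 11 to 15. All 10 injured arrays lay above VEH-Sham 5, and 3 of them lay below the highest sham. Ccl9 rose by 0.90 ± 0.29 in VEH-HI (limma adjusted p = 0.0303, or 1.48 against VEH-Sham 5 alone), a call lost without VEH-Sham 3, VEH-Sham 5, VEH-HI 6 or VEH-HI 8 (limma adjusted p up to 0.0868). In EPO-HI it differed by 0.62 ± 0.29 (limma adjusted p = 0.128, or 1.20 against VEH-Sham 5 alone). Its second probe set differed by 0.47 ± 0.25 in VEH-HI (limma adjusted p = 0.179) and 0.23 ± 0.25 in EPO-HI (limma adjusted p = 0.547), or by 1.07 and 0.83 against VEH-Sham 5 alone.

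Cxcl10, an interferon-induced ligand of CXCR3 that attracts activated T cells, read 5.45, 4.94, 5.67, 4.25 and 4.27 in VEH-Sham 1 to 5, 6.59, 5.98, 6.04, 5.74 and 5.55 in VEH-HI 6 to 10, and 6.71, 5.54, 4.73, 5.59 and 6.50 in EPO-HI 11 to 15. VEH-HI 10 overlapped with the shams by 1 array, and EPO-HI 12, 13 and 14 lay below VEH-Sham 3. Cxcl10 rose by 1.06 ± 0.34 in VEH-HI (limma adjusted p = 0.0298) and differed by 0.90 ± 0.34 in EPO-HI (limma adjusted p = 0.0676), or by 1.71 and 1.54 against VEH-Sham 5 alone. The VEH-HI call was lost without VEH-Sham 2, VEH-Sham 4, VEH-HI 6 or VEH-HI 7 (limma adjusted p up to 0.0849).

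Cxcl1, the ligand of CXCR2 that draws neutrophils, was measured by 3 probe sets that did not run in 1 direction. By the suffixes Affymetrix gives, probes of the brightest (x) may also match unrelated sequences, and those of the second (s) may match several transcripts. The brightest read 8.09, 7.52, 7.55, 7.86 and 6.65 in VEH-Sham 1 to 5, 7.60, 7.17, 7.50, 7.36 and 6.64 in VEH-HI 6 to 10, and 7.11, 6.46, 6.67, 6.80 and 7.18 in EPO-HI 11 to 15. VEH-Sham 1 to 4 were high and VEH-Sham 5 lay among the injured arrays. The difference was -0.28 ± 0.22 in VEH-HI (limma adjusted p = 0.372), and in EPO-HI the probe set was called lower (-0.69 ± 0.22, limma adjusted p = 0.0357). Against VEH-Sham 5 alone both differences were above 0, at 0.61 and 0.19. The lower call was also lost in 10 of 22 other settings that ignored the array set, among them equal array medians (limma adjusted p up to 0.107).

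The second Cxcl1 probe set also separated VEH-Sham 1 to 4 (7.37 to 7.56) from VEH-Sham 5 (5.73), with differences of -0.13 and -0.47 from the 5 shams and of 1.25 and 0.91 from VEH-Sham 5. The dimmest read 5.73, 4.99, 4.63, 4.87 and 4.92 in VEH-Sham 1 to 5, 7.87, 5.88, 7.61, 4.74 and 4.92 in VEH-HI 6 to 10, and 6.23, 5.30, 5.26, 5.26 and 6.63 in EPO-HI 11 to 15. VEH-HI 6 and 8 stood well above the other arrays, while VEH-HI 9 and 10 lay within the shams. On this probe set the SD was 1.47 in VEH-HI against 0.42 in VEH-Sham, and the differences were 1.18 ± 0.48 in VEH-HI (limma adjusted p = 0.0794) and 0.71 ± 0.48 in EPO-HI (limma adjusted p = 0.303). Against VEH-Sham 5 alone these were 1.29 and 0.82.

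**Figure D2:**
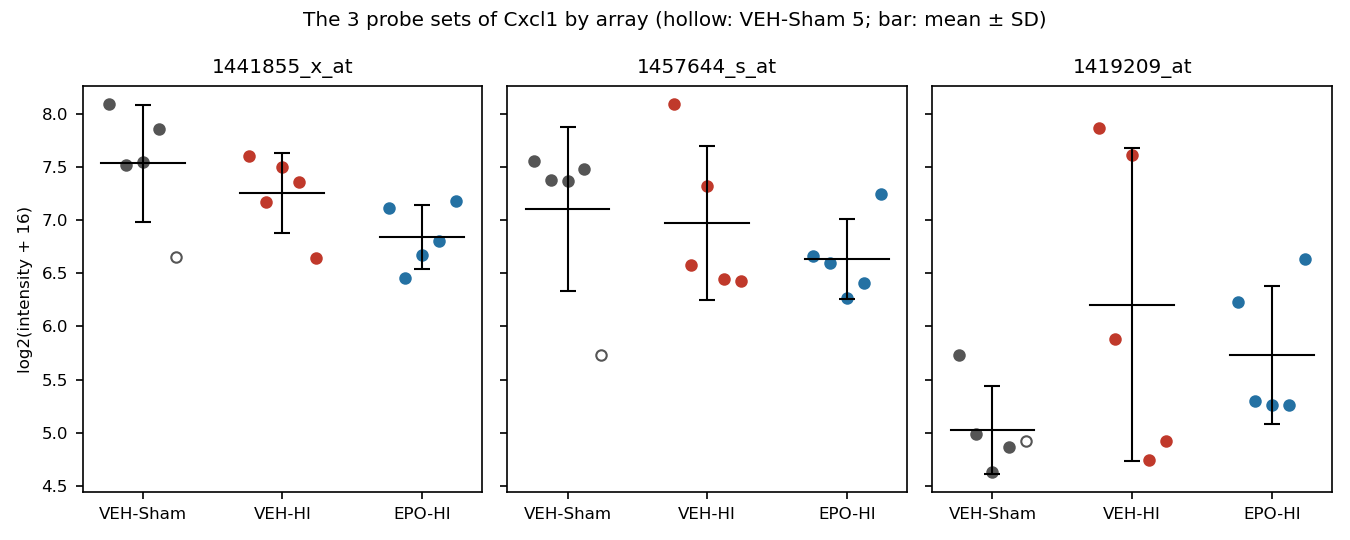
Log2(intensity + 16) of the 3 Cxcl1 probe sets on every array, by group (5 arrays each); the hollow point is VEH-Sham 5 and bars are the mean ± SD. In the left and middle panels, the brighter probe sets, VEH-Sham 5 lies below the other shams, and in the right panel VEH-HI 6 and 8 reach 7.87 and 7.61 while VEH-HI 9 and 10 stay at 4.74 and 4.92.

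Cxcl16, a membrane-bound chemokine that is shed by ADAM10 and binds CXCR6, read 6.65, 5.31, 6.06, 6.06 and 6.29 in VEH-Sham 1 to 5, 6.12, 6.21, 6.87, 5.83 and 5.60 in VEH-HI 6 to 10, and 6.80, 5.86, 5.73, 6.26 and 6.46 in EPO-HI 11 to 15. The 3 groups overlapped throughout. The difference was 0.051 ± 0.25 in VEH-HI (limma adjusted p = 0.904) and 0.15 ± 0.25 in EPO-HI (limma adjusted p = 0.715), and -0.16 and -0.066 against VEH-Sham 5 alone. The dimmer Cxcl16 probe set, not in the main test, differed by 0.38 in VEH-HI without the filter (limma adjusted p = 0.320), or by 1.02 against VEH-Sham 5 alone.

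After hypoxic ischemia with erythropoietin, 5 of the 13 tested chemokine probe sets were called higher than sham (Ccl12, Ccl3, Ccl6, Ccl2 and Ccl4), 1 was called lower (Cxcl1) and 7 were not called. The backgrounds were 18.3% called in either direction and 7.42% called higher. All 5 EPO-HI arrays lay above all shams for 3 of the 13 (Ccl12, Ccl3 and Ccl4), against 3.16% of all tested. The median difference was 0.62 over the 13 and -0.053 over all tested, and against VEH-Sham 5 alone these medians were 0.91 and 0.0011. Without the filter 3 of 15 were called higher and 0 lower, against 3.99% of all 45037 called higher. With equal array medians 8 were called higher and 0 lower (28.2% of all tested called higher), and with quantile normalization 8 and 1 (8.10%). Blocking on the array set left 0 of 13 called by limma and 4 of all 27022, with 7 of 13 at an unadjusted p under 0.05 against 4.43% of all tested. Both comparisons use the same 5 shams, so their values are set side by side and their likeness is no separate result. Across both injured groups together, 8 of the 13 probe sets had all 10 arrays above VEH-Sham 5, against 10.4% of all tested. For Ccl2, both Ccl9 probe sets and the second Cxcl1 probe set among them, all 4 other shams also lay above VEH-Sham 5. Ccl12, Ccl3, Ccl2, Cxcl10 and the brightest Ccl6 probe set, also among them, passed the filter through the injured groups. The share without the filter was not counted.

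**Figure D3:**
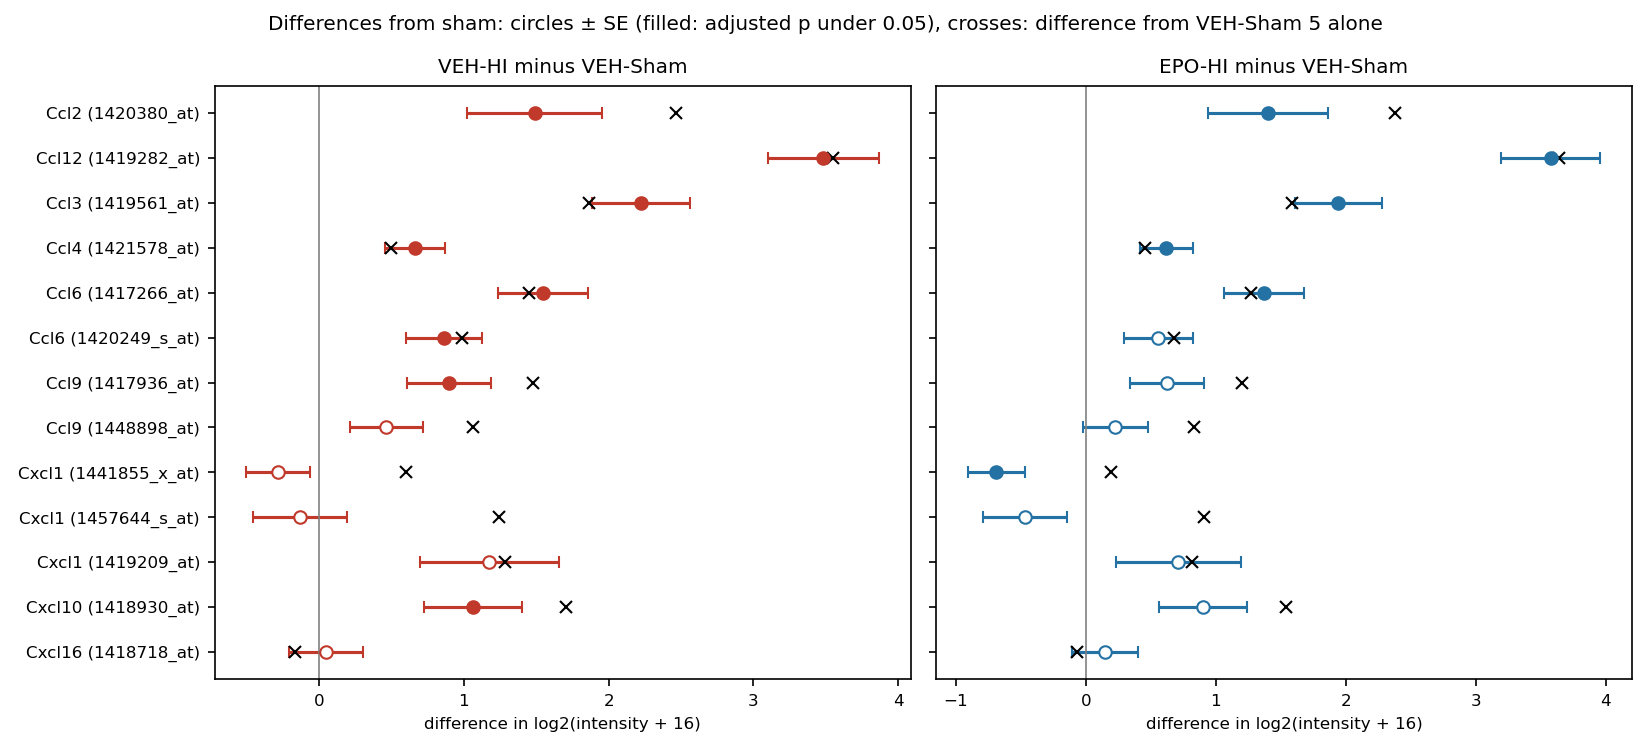
Log2 differences of VEH-HI (left) and EPO-HI (right) from VEH-Sham for the 13 tested chemokine probe sets; circles are the difference from the 5 shams ± SE, filled where the limma adjusted p is under 0.05, and crosses are the difference from VEH-Sham 5 alone. Ccl12 lies farthest right in both panels, and the 2 brighter Cxcl1 probe sets lie left of 0 by circle and right of 0 by cross.

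Ccl12, Ccl3 and the brightest probe set of Ccl6 were called higher in both injured groups under all 22 alternatives that ignored the array set. Their largest limma adjusted p over those alternatives was 0.000513, 0.00241 and 0.00980 in VEH-HI and 0.000830, 0.00876 and 0.0247 in EPO-HI. The count of 8 chemokine calls in VEH-HI fell to 3 without VEH-HI 6 and to 5 without VEH-Sham 4 or VEH-HI 8. The count of 6 in EPO-HI fell to 3 without VEH-Sham 1, 2 or 4 or EPO-HI 14.

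Erythropoietin before the injury was compared with vehicle within array set B. No chemokine probe set was called, and none had an unadjusted p under 0.05; limma called 0.0% of all 27022 probe sets, with a smallest adjusted p of 0.138 and 1066 at an unadjusted p under 0.05. Of the 13 chemokine probe sets 11 were lower in EPO-HI, with a median difference of -0.24 against -0.0047 over all tested. The 13 are not independent: Cxcl1, Ccl6 and Ccl9 have several each, and all correlated over the injured arrays. The differences of Ccl2, Ccl4, Cxcl10, Ccl12 and Cxcl16 changed sign when certain single arrays were left out. The count of lower probe sets was not tested. The intervals stayed wide. For Ccl12 the difference was 0.094 (95% interval -0.70 to 0.89), for Ccl2 -0.087 (-1.05 to 0.88), for Ccl3 -0.28 (-0.98 to 0.42) and for Cxcl10 -0.16 (-0.87 to 0.54). Ccl4 had the narrowest (-0.045, from -0.47 to 0.38), and the brightest Cxcl1 probe set differed by -0.41 (-0.87 to 0.048). At 5 arrays a group, differences of Ccl12 within its interval, in either direction, remain compatible with these values. The interval is not adjusted for the 27022 probe sets and is not the size at which a change would be called.

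**Figure D4:**
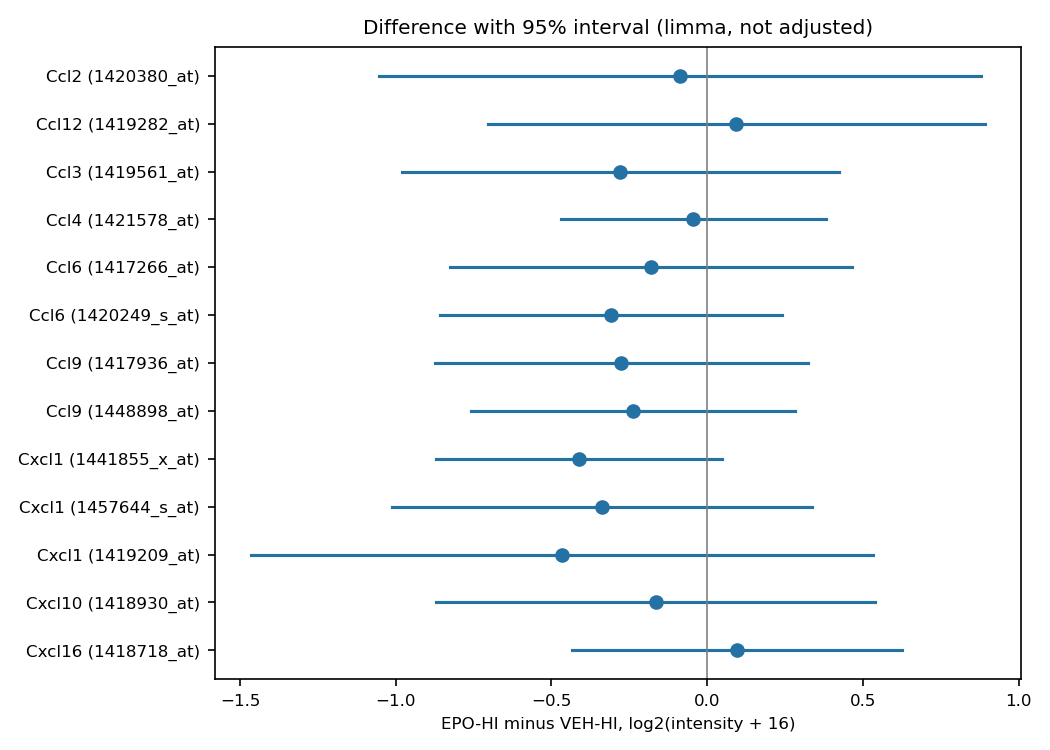
Log2 difference of EPO-HI from VEH-HI for the 13 tested chemokine probe sets; points are the limma estimates (5 arrays per group) and lines their 95% intervals, not adjusted for the number of probe sets. The fit ignored the array set. Every interval spans 0, and 11 of the 13 points, which are not independent, lie left of it.

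The injured arrays that were high for 1 chemokine were mostly high for the others. Ranked over the 10 hypoxic ischemia arrays and averaged over the 13 probe sets (1 is highest), VEH-HI 6 had a mean rank of 1.92, EPO-HI 15 of 2.85, VEH-HI 8 of 2.92 and EPO-HI 11 of 3.00. VEH-HI 7 stood at 5.23, VEH-HI 9 at 6.85, EPO-HI 14 at 7.08, EPO-HI 12 at 7.69, VEH-HI 10 at 8.38 and EPO-HI 13 at 9.08. VEH-HI 6 was the highest of the 10 arrays for 7 of the 13 probe sets. High and low arrays thus stood in both treatments. The 78 pairs of chemokine probe sets correlated at 0.41 to 0.94 (median 0.76), all above 0. They include pairs of probe sets of the same gene, at 0.72 to 0.93. No background of other probe sets stands beside them, so these values are not shown to be particular to chemokines.

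**Figure D5:**
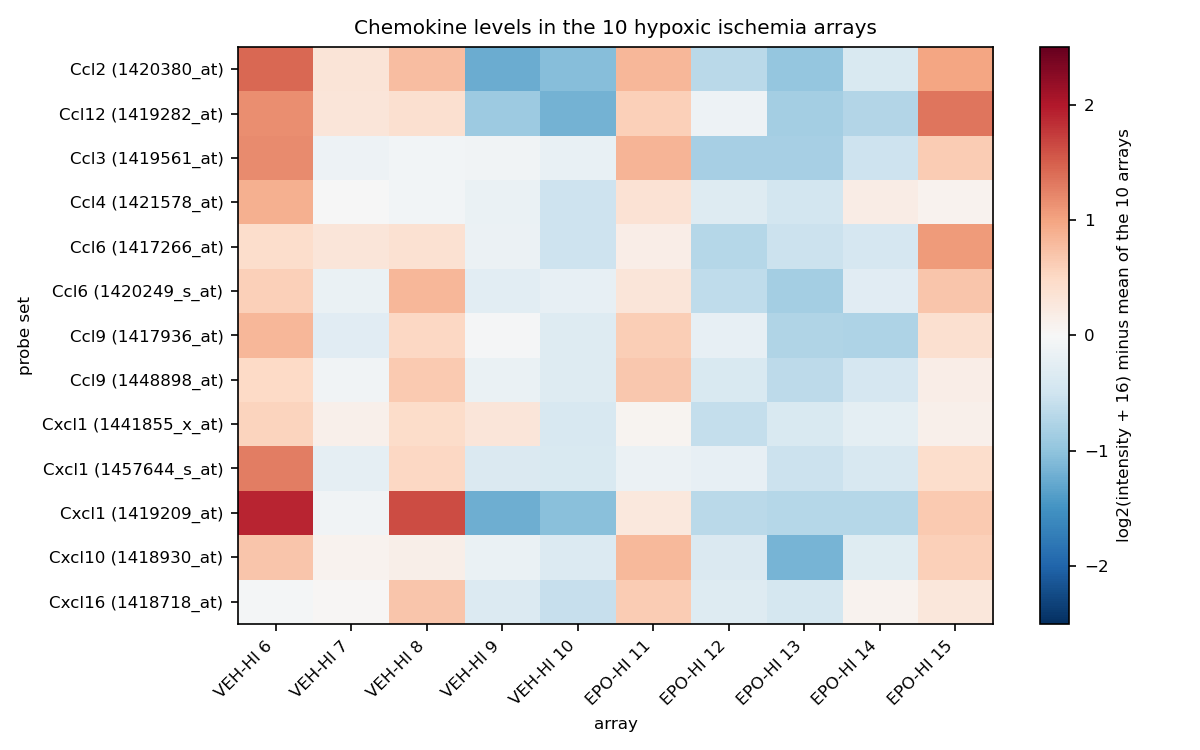
Log2(intensity + 16) of the 13 tested chemokine probe sets (rows) on the 10 hypoxic ischemia arrays (columns), each less its mean over those arrays; red is above and blue below the mean. VEH-HI 6, VEH-HI 8, EPO-HI 11 and EPO-HI 15 are red for most rows, and EPO-HI 13 is blue for all.

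Ccl12 was set against each of the 9 other genes over these 10 arrays, with two-sided permutation tests (100000 resamples) adjusted by Benjamini-Hochberg over the 9 relations. Ccl2, a gene of the same cluster, followed it most closely (Pearson r = 0.941, permutation adjusted p = 0.00234; Spearman rho = 0.964, permutation adjusted p = 0.000900). Without the 2 arrays farthest from the Ccl12 median, VEH-HI 10 and EPO-HI 15, r was 0.947, and with group means removed it was 0.946. Ccl6 (r = 0.853, rho = 0.782) and Cxcl10 (r = 0.821, rho = 0.794) each had a permutation adjusted p of 0.0107 for r and 0.0259 for rho. Without those 2 arrays r was 0.761 for Ccl6 and 0.827 for Cxcl10, and with group means removed 0.876 and 0.839. None of these 3 relations lost its call when any 1 array was left out.

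The relations of Ccl12 with Ccl9 (r = 0.796, rho = 0.721), Ccl7 (r = 0.762, rho = 0.733), Ccl3 (r = 0.751, rho = 0.721) and Ccl4 (r = 0.706, rho = 0.758) had permutation adjusted p-values of 0.0205, 0.0205, 0.0208 and 0.0245 for r and 0.0259 for each rho. Without the 2 farthest arrays r was 0.831, 0.869, 0.787 and 0.728 in the same order. All 4 lost their call without VEH-HI 6 alone, where r was 0.736, 0.691, 0.671 and 0.618 (exact permutation adjusted p 0.0511, 0.0635, 0.0638 and 0.0883). That of Ccl4 was also lost without VEH-HI 10 (r = 0.632) or EPO-HI 13 (r = 0.664). Cxcl16 had r = 0.659 (permutation adjusted p = 0.0465; rho = 0.745, permutation adjusted p = 0.0259), which dropped to 0.552 without the 2 arrays and to 0.566 without VEH-HI 10 alone. Its call was lost in 10 alternatives. Cxcl1 had r = 0.586 (permutation adjusted p = 0.0780; rho = 0.539, permutation adjusted p = 0.113), with r = 0.548 without the 2 arrays and r = 0.764 without VEH-HI 9.

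Of 13159 other tested genes, those most like a chemokine over the 10 arrays were ranked by Pearson r, as a description. Ccl12 was most like Ifi202b (0.977), an interferon-induced gene, Rapgef3 (0.960), a cAMP-activated exchange factor, and Icam1 (0.946), the endothelial adhesion molecule for leukocytes. Ccl3 was most like Sppl2b (0.960), a membrane protease, Pdpn (0.939), the glycoprotein podoplanin, and Vim (0.936), the filament protein of reactive astrocytes. Cxcl10 was most like the interferon-induced genes Rtp4 (0.949) and Ifitm3 (0.939), and like Agtr2 (0.936), an angiotensin receptor. Cxcl16 was most like Pop1 (0.916), Eva1a (0.897) and Spint1 (0.889). Icam1 (1.45, limma adjusted p = 0.00350) and Ifi202b (1.97, limma adjusted p = 0.00363) were called higher in VEH-HI (1.25 and 1.68 against VEH-Sham 5). Rapgef3 was not called (-0.17, limma adjusted p = 0.429), and its direction turned against VEH-Sham 5 (0.25).

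Other genes of the chemokine system were counted from lists of their own. The background in VEH-HI was 11.9% of the 13168 tested genes for rises and 11.5% for falls, and in EPO-HI it was 8.86% and 9.46%. Of 28 other chemokines 12 were tested, and 2 rose and 3 fell in VEH-HI. Cxcl14 rose by 0.44 on its brightest probe set (limma adjusted p = 0.0113; 0.33 against VEH-Sham 5), with its other probe set in the opposite direction. The platelet chemokine Pf4 rose by 0.51 (limma adjusted p = 0.0231; 0.52 against VEH-Sham 5), a call lost without VEH-Sham 1 or VEH-HI 6, 8 or 9 (limma adjusted p up to 0.0677). Ccl8, the neighbour of Ccl12, fell by 0.58 (limma adjusted p = 0.0227), with a difference of -0.23 against VEH-Sham 5. That call was lost with equal array medians (-0.33, limma adjusted p = 0.115), with quantile normalization (-0.39, limma adjusted p = 0.0779) and without VEH-Sham 4 or VEH-HI 9. Cxcl11, a CXCR3 ligand like Cxcl10, was called lower (-0.79, limma adjusted p = 0.0337) and was 0.16 higher against VEH-Sham 5, and its call was lost in 11 other settings, both scalings among them. The neutrophil attractants Cxcl2, Cxcl3 and Cxcl5 were too dim to be tested, as were Ccl5, Ccl11 and Cxcl9. In EPO-HI 0 rose and 1 fell.

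Of 23 chemokine receptors 10 were tested, and Ccr1, the receptor of Ccl3, Ccl6 and Ccl9, was the 1 called higher in VEH-HI (0.70, limma adjusted p = 0.0389; 0.98 against VEH-Sham 5). Its call was lost without the filter and without VEH-Sham 1, 2, 4 or 5 or VEH-HI 6, 8 or 9 (limma adjusted p up to 0.102). None was called lower there, and 0 rose and 3 fell in EPO-HI. Among those 3, Ccr6 differed by -0.66 (limma adjusted p = 0.0224), or by -0.31 against VEH-Sham 5. Cxcr3 differed by -0.59 (limma adjusted p = 0.0418) and was 0.28 higher against VEH-Sham 5. Ccr2, Cxcr2 and Cxcr6, the receptors of Ccl2 and Ccl12, of Cxcl1 and of Cxcl16, were too dim to be tested. Cxcr3, the receptor of Cxcl10, differed by -0.52 in VEH-HI (limma adjusted p = 0.0575) and by 0.34 against VEH-Sham 5.

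Of 24 inducers and signalling genes of chemokine transcription 17 were tested, and 6 rose and 1 fell in VEH-HI, and 3 rose and 2 fell in EPO-HI. Fos, a subunit of AP-1, rose by 1.80 in VEH-HI (limma adjusted p = 0.00677), Nfkbiz, a nuclear NF-kB regulator, by 0.95 (limma adjusted p = 0.0161) and Stat3, a cytokine-activated factor, by 0.73 (limma adjusted p = 0.00822). Against VEH-Sham 5 these were 1.48, 1.09 and 0.83. Stat2, of the interferon response, was called lower (-0.78, limma adjusted p = 0.00399), with -0.14 against VEH-Sham 5. Of 6 genes that shed or bind chemokines 5 were tested, and Sdc4, a heparan sulfate proteoglycan, rose in VEH-HI (1.19, limma adjusted p = 0.00403) and in EPO-HI (1.21, limma adjusted p = 0.00541), and by less against VEH-Sham 5 (0.70 and 0.73). Adam10, which sheds Cxcl16, differed by -0.098 in VEH-HI (limma adjusted p = 0.436). None of these 4 lists held a gene called between EPO-HI and VEH-HI by limma. There the smallest p-values were those of Ccl28 (0.27) and Cxcl14 (-0.14), Ccr1 (-0.37) and Ackr2 (-0.30), Tlr4 (-0.52) and Irf1 (0.27), and Adam17 (0.11) and Adam10 (-0.074), each with a limma adjusted p of 0.9997.

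Markers of cells that make or follow these chemokines differed on the same arrays. In bulk tissue, fewer cells of a type and less RNA per cell cannot be told apart. Of 12 tested microglia and macrophage markers 7 rose and 1 fell in VEH-HI, and their summed intensity was 2436 to 2965 in VEH-Sham, 3477 to 5154 in VEH-HI and 2809 to 4035 in EPO-HI. All 6 reactive astrocyte markers were tested and 5 rose, with sums of 1948 to 2221, 3837 to 7944 and 3554 to 6610. The median difference in VEH-HI was 0.53 for microglia and macrophages and 1.34 for reactive astrocytes. Against VEH-Sham 5 these medians were 0.69 and 1.25. The highest reactive astrocyte sums were on VEH-HI 6 (7944), EPO-HI 11 (6610), VEH-HI 7 (5914), VEH-HI 8 (5450) and EPO-HI 15 (5332), which include the 4 arrays with the highest chemokine ranks. This was not particular to reactive astrocytes. The highest endothelium sums were on the same arrays (1286, 969, 1029, 983 and 969 as listed). The 4 arrays also led for Alas2, the 1 erythroid marker tested (190 to 307). For the other astrocyte markers VEH-HI 9 (8285) came second. The microglia sums had another order: within VEH-HI they were highest on VEH-HI 6 (5154) and lowest on VEH-HI 8 (3477), and within EPO-HI highest on EPO-HI 12 (4035), which ranked low for chemokines. Of 7 tested neutrophil markers 2 rose in VEH-HI, and the sum was 204 to 347 in VEH-Sham, 249 to 2493 in VEH-HI and 233 to 1027 in EPO-HI. VEH-HI 8 (2493), EPO-HI 15 (1027) and VEH-HI 6 (728) held the highest neutrophil sums, while EPO-HI 11 (352) lay below EPO-HI 12 (367). S100a8 and S100a9 made up most of the VEH-HI 8 sum. They reached 10.2 and 10.1 on the log2 scale in VEH-HI, against at most 6.07 and 5.55 in VEH-Sham. Over the 7 markers the median difference in VEH-HI was 0.018, or 0.33 against VEH-Sham 5. Ngp differed by -0.39 (limma adjusted p = 0.162), or by 0.27 against VEH-Sham 5.

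Of 6 monocyte markers 3 were tested and 0 were called by limma (sums of 344 to 429, 356 to 570 and 422 to 523), and Ccr2 and Ly6c2, which define inflammatory monocytes, were too dim to be tested. Of 8 T and NK cell markers only Cd8a was bright enough, and limma did not call it (-0.084, adjusted p = 0.841). Of 7 neuron markers 1, Gad1, was called lower in VEH-HI (-0.28, limma adjusted p = 0.0210, or -0.18 against VEH-Sham 5). Its other probe set ran in the opposite direction. VEH-HI 6 had the lowest neuron sum (13194, against 16353 to 18625 in VEH-Sham). All 7 were bright enough to be tested, so the defining markers of neural tissue were present. Of the other markers, 2 of 5 for astrocytes, 2 of 6 for endothelium, 1 of 5 for meninges and fibroblasts and 0 of 1 tested for erythroid cells rose in VEH-HI, and none fell. Against VEH-Sham 5 the median differences of these lists were 0.094 for astrocytes, 0.034 for endothelium, 0.36 for meninges and fibroblasts and 0.76 for erythroid cells, and the endothelial Pecam1 went from 1.40 to 0.015. The part of any of these cell types in the chemokine differences was not tested.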

How the data were processed

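Per the labels, total RNA of mouse forebrain was measured on 15 arrays in 3 groups of 5. The deposited table gives intensities on a linear scale, with 1 value for each probe set on each array. From the values, the authors scaled every array to a mean intensity of 150.0 after 2% was trimmed at each end. The sources used here do not name the software that summarised the probes. All 15 value columns matched a sample by name, and 0 were unmatched. The table held 45101 probe sets, of which 64 controls were left out. Of the other 45037, the platform annotation gave 1 symbol for 34945, several for 932 and none for 9160.

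Intensities were converted to log2(intensity + 16), and a fold on this scale understates the change of dim genes. All 15 arrays entered 1 model with 3 group means in limma 3.58.1 under R 4.3.3 (lmFit, eBayes with trend), with two-sided tests and Benjamini-Hochberg adjustment over 27022 probe sets. The code was tested on simulated data. Correlations used scipy 1.17.1, and figures matplotlib 3.10.9. The number of arrays limits the precision. Alternatives were the constant added, quantile normalization, equal array medians, no filter, no trend, only the arrays compared, the array set as a block, VEH-Sham 5 alone, and each array left out. Those for correlations were added after the data were seen.

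The 10 genes, the lists and the tests were chosen with earlier results of these data known. Of each list, up to 4 genes with the smallest p in VEH-HI and up to 2 in EPO-HI against VEH-HI could be named, and for 4 chemokines the 3 most similar genes.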

Additional observations from a re-analysis of the deposited data

Results flagged for a closer look

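Each probe set of the 10 chemokine genes was screened within each group of 5 arrays for 1 array far from the others. The gap to the nearest array was divided by the range of the group and set against a critical ratio of 0.71, which chance passes in about 1 of 20 groups, and 4 of 45 groups passed. Ccl3 in VEH-HI gave 0.907, with VEH-HI 6 at 8.33 and the other 4 arrays between 6.96 and 7.09. Ccl7 in VEH-HI gave 0.776, again through VEH-HI 6 (6.06). The second Cxcl1 probe set in VEH-Sham gave 0.897, through VEH-Sham 5 at 5.73. The dimmer Cxcl16 probe set in EPO-HI gave 0.737, through EPO-HI 15 at 5.71.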

How the results depend on the processing

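No paired analysis was possible because replicate numbers run through the whole series and no 2 groups share one. Of the chemokine probe sets, 8 were called in VEH-HI and 6 in EPO-HI against VEH-Sham. Both counts were 0 with VEH-Sham 5 alone as the control or with the array set as a block, where a single sham informs the contrast. Without 1 array they ranged from 3 to 9 and from 3 to 6. For EPO-HI the count was 3 without the trend and 3 without the filter. The count of 0 between EPO-HI and VEH-HI was the same under every alternative run. With VEH-Sham 5 alone or the block, differences turned for Cxcl1 (0.61 in VEH-HI, 0.19 in EPO-HI), Cxcl16 (-0.16 and -0.066), Cxcl11 (0.16), Cxcr3 (0.34) and Adam10 (0.073, and 0.15 with equal array medians), and with VEH-Sham 5 alone for Ccl7 in EPO-HI (0.39). Cxcl1 turned on its dimmest probe set (1.18 and 0.71), and Cxcl16 between EPO-HI and VEH-HI on its dimmer probe set (-0.21). Without 1 array, differences from VEH-Sham spanned 0 for Ccl7 in VEH-HI (-0.083 to 0.074, over the 3 such fits in which it passed the filter), Cxcl16 in VEH-HI (-0.14 to 0.20) and EPO-HI (-0.044 to 0.29) and Sdc1 in VEH-HI (-0.050 to 0.25). Between EPO-HI and VEH-HI they spanned 0 for Ccl2 (-0.41 to 0.26), Ccl12 (-0.23 to 0.39), Ccl4 (-0.18 to 0.17), Cxcl10 (-0.39 to 0.11) and Cxcl16 (-0.048 to 0.28). The cause was not tested. Dim probe sets such as those of Ccl7 and Ccl12 in sham have low signal over background.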
